A study of Mus musculus with 31 samples.

Results

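The genes described here move manganese, zinc and iron across liver cell membranes or bind these metals inside the cell: Slc30a10, Slc39a14, Slc39a8, Slc39a4, Mt1, Mt2, Slc40a1, Tfrc and Slc11a2. They are 9 of 18147 genes with a single symbol on the array, and all 9 were among the 12890 genes bright enough to test. Each gene was read from its brightest probe set, by the mean of the 31 arrays, and other probe sets of a gene are given beside it. Slc30a10 was taken up because its average difference between treated and vehicle livers was already known from these arrays. Its drug differences are therefore given as a description, with no test. The other 8 genes were added for what they are known to do, at a time when results of these data were known.

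The samples were left liver lobes of females of 4 inbred strains, WSB/EiJ, SM/J, NZW/LacJ and MA/MyJ, aged 8 to 10 weeks at the start. Within each strain, animals received sterile water as vehicle or PF-04287881, a candidate antibiotic, at 600 mg/kg by oral gavage on each of 7 days, and livers were collected 24 hours after dosing ended. Groups held 4 animals each, 31 in all, except for 3 treated WSB/EiJ animals after 1 died of a gavage error. The series codes MA/MyJ and NZW/LacJ for vacuolation of Kupffer cells, the resident liver macrophages, and NZW/LacJ also for single cell necrosis.

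Manganese reaches the liver in portal and arterial blood, is imported by hepatocytes and leaves the body mainly in bile. ZIP14 (Slc39a14) is the main importer on the blood side, ZnT10 (Slc30a10) is an exporter on the bile side, and ZIP8 (Slc39a8) takes manganese back from bile. Zinc enters the cytosol through ZIP proteins, leaves it through ZnT proteins and is buffered by metallothioneins, whose genes are switched on by the zinc-sensing factor MTF-1. Iron enters as transferrin-bound iron through the transferrin receptor (Tfrc) or as free iron through ZIP14 and DMT1 (Slc11a2). It leaves through ferroportin (Slc40a1), which the liver hormone hepcidin removes from the cell surface.

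All values are log2 intensities, so that a difference of 1 is a doubling, and levels are compared only within a probe set. Errors after group means are standard deviations over animals, and errors after differences are standard errors of the linear model. A difference was called passed when its p, adjusted by Benjamini-Hochberg, was under 0.05 in the moderated test of limma over all 12890 genes. The hepatocyte marker list, 13 of 14 genes measured, averaged 13.6 to 13.8 in every vehicle and treated array. Several of its genes, such as Alb (14.67 to 14.80) and Apoa1 (14.66 to 14.81), read close to the highest value of any probe set, 14.9. A flat mean there does not show that the share of hepatocytes was constant. The Kupffer cell list, all 13 measured, rose for the average of the strains: 10 of 13 genes passed and none fell in limma, also at an unadjusted p under 0.05. Of all genes 13.3% passed as higher. By strain, 8 of 13 rose in MA/MyJ, 8 in WSB/EiJ, 2 in NZW/LacJ and 0 in SM/J. In these strains 4.14%, 19.3%, 21.5% and 2.59% of all genes passed in either direction. Of 10 sinusoidal endothelial genes, 8 fell for the average, where 8.92% of all genes did.

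The array titled WSB/EiJ treated animal 3 went against its label. On a scale built from 86 probe sets that set WSB/EiJ apart, where 1 is the typical array of that strain, this array stood at 0.0145 and the other 6 WSB/EiJ arrays at 0.732 to 1.14. On the matching NZW/LacJ scale, built from 33 probe sets, it stood at 1.02. There the treated NZW/LacJ arrays ranged from 0.826 to 0.902, and every vehicle NZW/LacJ array lay above them, up to 1.02. The array in doubt thus stood beside the vehicle arrays of that strain on this scale. Whether its treatment label holds was not tested. Among the 9 genes here, 5 of its values lay within the range of the NZW/LacJ vehicle arrays 4 within that of the WSB/EiJ vehicle arrays and 1 within that of the 2 other treated WSB/EiJ arrays. Values are over all arrays unless stated. For the 9 genes they are given again with this array left out, when the treated WSB/EiJ group holds 2 animals, wherever a call changed.

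Slc30a10, the manganese exporter, was lower in treated livers of NZW/LacJ, SM/J and WSB/EiJ than in their vehicle groups, and only slightly lower in MA/MyJ. In NZW/LacJ the 4 vehicle animals read 10.38, 10.34, 10.51 and 10.29 on probe set 1439934_at, and the 4 treated animals 9.07, 8.60, 9.09 and 8.21. In SM/J the vehicle animals read 9.53, 9.52, 9.34 and 9.23 and the treated animals 8.10, 8.59, 8.17 and 7.78. In these 2 strains every treated animal lay below every vehicle animal. In WSB/EiJ the vehicle animals read 11.10, 10.71, 10.75 and 11.09, and the treated animals 8.95, 9.37 and, on the array in doubt, 10.25. The 2 treated animals not in doubt lay below the vehicle range. The array in doubt also lay below it, close to the NZW/LacJ vehicle values of 10.29 to 10.51. It lay above the treated NZW/LacJ values of 8.21 to 9.09. Whether the place of the array in doubt goes with strain or with drug was not tested. In MA/MyJ the vehicle animals read 10.45, 10.50, 10.15 and 10.55 and the treated animals 10.18, 9.93, 10.14 and 10.05, and the ranges overlapped.

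**Figure D1:**
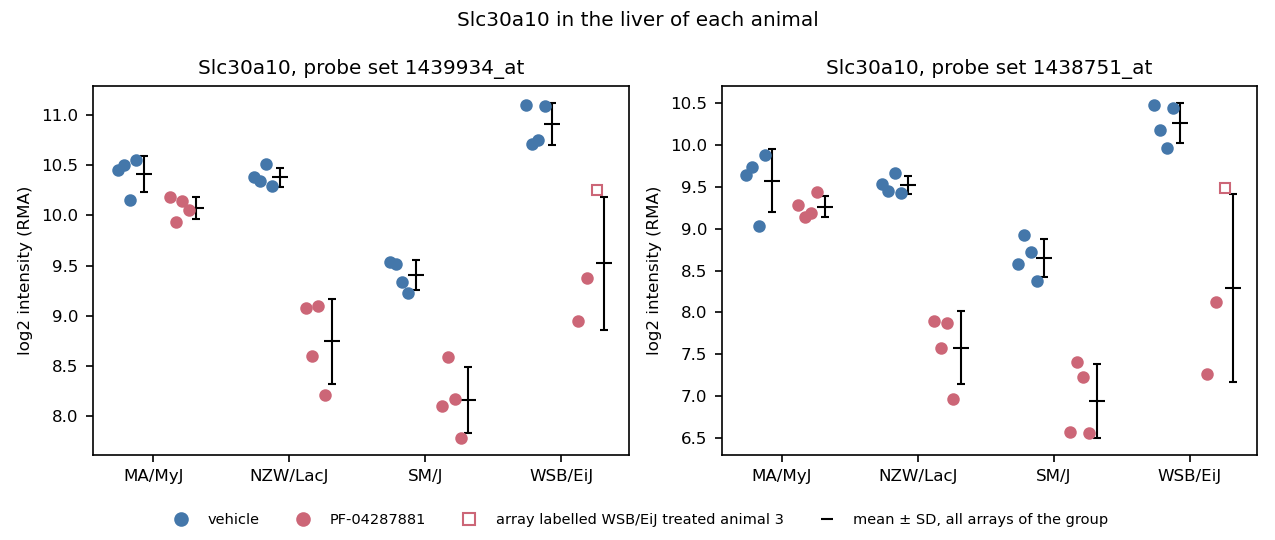
Log2 intensity of Slc30a10 in each animal (vertical axis) by strain (horizontal axis), on its 2 probe sets. Points are animals, blue for vehicle and red for PF-04287881, the open square is the array in doubt, and black bars give the mean and SD of the group; treated SM/J animals sit at 7.78 to 8.59 and vehicle SM/J animals at 9.23 to 9.53 on the left panel.

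The treated minus vehicle difference of Slc30a10 was -1.63 ± 0.20 in NZW/LacJ, which is 0.322 of the vehicle level. It was -1.39 ± 0.22 in WSB/EiJ, -1.25 ± 0.20 in SM/J and -0.34 ± 0.20 in MA/MyJ. When the array in doubt was left out the WSB/EiJ difference was -1.75 ± 0.20, and the average over strains moved from -1.15 ± 0.10 to -1.24 ± 0.09. A second probe set of the gene, 1438751_at, gave larger differences of -1.97 ± 0.32 in WSB/EiJ, -1.71 ± 0.30 in SM/J and -1.95 ± 0.30 in NZW/LacJ, and -0.31 ± 0.30 in MA/MyJ. Since whole liver was measured, fewer cells of a type and less RNA per cell cannot be told apart, here or for the other genes. Across all genes, 8.92% passed as lower for the average of the strains, which is the background for a gene chosen by that average.

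The size of the Slc30a10 difference depended on the strain, a contrast that the average does not fix. The F test of equal drug differences in the 4 strains gave an adjusted p of 0.00841 in limma, and 0.000221 without the array in doubt. The MA/MyJ difference was smaller than that of NZW/LacJ by 1.30 ± 0.29 (limma adjusted p = 0.0135) and than that of WSB/EiJ by 1.05 ± 0.30 (limma adjusted p = 0.0232). Against SM/J the gap was 0.91 ± 0.29 and did not pass (limma adjusted p = 0.241), with a 95% interval of 0.32 to 1.5. The gap to WSB/EiJ lost its call when any 1 of 4 arrays was left out, with limma adjusted p-values of 0.0559 without MA/MyJ vehicle 3, 0.0501 without WSB/EiJ vehicle 1, 0.104 without WSB/EiJ treated 1 and 0.0517 without WSB/EiJ treated 2. It was 1.41 ± 0.26 without the array in doubt (limma adjusted p = 0.000311). Of all genes, 2.67% passed for the gap between MA/MyJ and NZW/LacJ, 12.2% for MA/MyJ and WSB/EiJ and 0.24% for MA/MyJ and SM/J. The other gaps, NZW/LacJ to SM/J, NZW/LacJ to WSB/EiJ and SM/J to WSB/EiJ, passed for 5.42%, 24.1% and 4.62% of all genes, and Slc30a10 passed in none of them. On the brightest probe sets of the 9 genes, Slc30a10 was the only one to pass the F test over all arrays, where 19.4% of all genes passed. Slc11a2 passed it on its probe sets 1452078_a_at and 1441709_at (limma adjusted p = 0.00783 and 0.0169). When the array in doubt was left out 4 passed on the brightest probe sets, against 32.4% of all genes.

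Vehicle livers already differed in Slc30a10, from 9.41 ± 0.15 in SM/J to 10.91 ± 0.21 in WSB/EiJ (SD, n = 4 each), with MA/MyJ at 10.41 ± 0.18 and NZW/LacJ at 10.38 ± 0.09 between them. The SM/J minus WSB/EiJ difference was -1.51 ± 0.20 (limma adjusted p = 4.37e-06), and the limma F test over strains gave an adjusted p of 1.30e-05. SM/J was also lower than MA/MyJ by 1.01 ± 0.20 (limma adjusted p = 0.000960) and than NZW/LacJ by 0.97 ± 0.20 (limma adjusted p = 0.00100). MA/MyJ and NZW/LacJ, neighbours in the order, differed by 0.03 ± 0.20 and did not pass. The MA/MyJ minus WSB/EiJ difference was -0.50 and passed only without the array in doubt (limma adjusted p = 0.0688 and 0.0204). The NZW/LacJ minus WSB/EiJ difference was -0.53 ± 0.20 (limma adjusted p = 0.0414), a call that was lost on leaving out any 1 NZW/LacJ vehicle animal or WSB/EiJ vehicle 1 or 4, with limma adjusted p-values of 0.0514 to 0.103. The second probe set also passed the F test (limma adjusted p = 0.000688). Between vehicle groups, 16.9% of all genes passed for MA/MyJ against SM/J, 20.9% for NZW/LacJ against SM/J and 24.2% for MA/MyJ against NZW/LacJ. Against WSB/EiJ the shares were 28.1% for MA/MyJ, 32.9% for SM/J and 38.4% for NZW/LacJ. Without the array in doubt these 6 shares were 22.1%, 26.2%, 30%, 33.8%, 38.7% and 43.7% in the same order.

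The promoter of Slc30a10 is shown with those of Mt1 and Mt2 because metallothionein genes are the textbook targets of MTF-1 and because these 3 genes did not move alike here. Each line is the 250 bases before the gene start in RefSeq, build GRCm38.p6, 5′ to 3′ on the plus strand, with capitals for the core letters of the metal response element, TGCACNC or TGCGCNC on either strand. The Slc30a10 window is chr1:185454598-185454847, the Mt2 window chr8:94172368-94172617 and the Mt1 window chr8:94178839-94179088.
Slc30a10: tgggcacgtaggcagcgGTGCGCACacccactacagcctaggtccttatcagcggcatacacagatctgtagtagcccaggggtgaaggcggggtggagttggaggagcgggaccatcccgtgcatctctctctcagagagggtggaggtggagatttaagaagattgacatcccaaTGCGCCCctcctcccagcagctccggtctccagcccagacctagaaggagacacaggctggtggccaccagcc
Mt2: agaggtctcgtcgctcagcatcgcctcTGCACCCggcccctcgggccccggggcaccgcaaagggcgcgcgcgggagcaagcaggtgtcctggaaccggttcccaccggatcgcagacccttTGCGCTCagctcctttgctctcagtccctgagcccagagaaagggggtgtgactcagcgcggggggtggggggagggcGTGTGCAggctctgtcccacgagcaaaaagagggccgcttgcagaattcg
Mt1: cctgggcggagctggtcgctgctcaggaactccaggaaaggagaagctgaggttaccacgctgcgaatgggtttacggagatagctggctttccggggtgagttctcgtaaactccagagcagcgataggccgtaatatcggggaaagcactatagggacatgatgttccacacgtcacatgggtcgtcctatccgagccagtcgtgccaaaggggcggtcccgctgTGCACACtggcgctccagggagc
The Slc30a10 window held 3 matches, of which 2 overlap on opposite strands in GTGCGCAC, which starts at position -233 counted from the gene start. The Mt2 window also held 3 and the Mt1 window 1. The Tfrc window that starts at chr16:32608646 held 2 and the Slc39a8 window that starts at chr3:135825407 held 1, and a further window of each gene held 0. Sequence outside these windows was not searched, so the counts do not rank the genes by their metal response elements. Of 32841 promoter windows of the same length in the table, 21.4% held at least 1 match and 1.26% held 3 or more. A match is a run of letters and was not tested for binding, and 5 of the 9 genes had a window in the table.

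Slc39a4 encodes ZIP4, best known as the zinc importer of the intestine. In each strain, with arrays taken as labelled, all of its treated values lay above all of its vehicle values, and the average over the strains rose. In NZW/LacJ the vehicle animals read 9.49, 9.45, 9.71 and 9.43 and the treated animals 10.12, 10.34, 9.74 and 10.39. In MA/MyJ they read 9.52, 9.56, 9.42 and 9.53 with vehicle and 9.91, 9.89, 10.09 and 10.19 with drug. Vehicle and treated ranges did not overlap in either strain. In SM/J the vehicle values were 9.29, 9.24, 9.38 and 9.07 and the treated values 9.89, 9.93, 9.76 and 9.45. In WSB/EiJ they were 8.83, 8.66, 8.43 and 9.30 against 9.32 and 9.71, with 9.71 also on the array in doubt. These ranges did not overlap either, although the highest vehicle and lowest treated WSB/EiJ animals lay close together, at 9.30 and 9.32. The array in doubt read close to the highest NZW/LacJ vehicle value, also 9.71. The share of all genes whose ranges do not overlap is not given here.

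The average rise of Slc39a4 over the strains was 0.61 ± 0.08, or 1.52-fold (limma adjusted p = 2.94e-06), and 0.59 ± 0.08 without the array in doubt. On the brightest probe sets it was the only one of the 8 genes not chosen on this contrast to pass over all arrays, where 22.2% of all genes passed. On other probe sets the average also passed, as a fall, for Slc39a8 (-0.34), Slc40a1 (-0.37) and Slc11a2 (-0.30). With that array left out 3 of 8 passed, against 32.7% of all genes. By strain the rise was 0.63 ± 0.15 in NZW/LacJ (limma adjusted p = 0.00314) and 0.77 ± 0.16 in WSB/EiJ (limma adjusted p = 0.00127), or 0.71 ± 0.18 without the array in doubt. In MA/MyJ it was 0.51 ± 0.15 (limma adjusted p = 0.0485), and in SM/J a difference of 0.52 ± 0.15 missed the threshold (limma adjusted p = 0.0636). The SM/J difference passed without the array in doubt (limma adjusted p = 0.0439).

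The MA/MyJ call of Slc39a4 was close to the threshold. It was lost with any 1 of 22 arrays left out, with limma adjusted p-values of up to 0.132. These were all 8 MA/MyJ arrays, vehicle arrays 1 and 2 of WSB/EiJ, the 4 vehicle arrays and treated array 1 of NZW/LacJ, and the 4 vehicle arrays and treated arrays 1, 2 and 3 of SM/J. The SM/J difference passed when any 1 of 5 arrays was left out: WSB/EiJ vehicle 3 (limma adjusted p = 0.0399) or 4 (limma adjusted p = 0.0258), the array in doubt, NZW/LacJ treated 3 (limma adjusted p = 0.0421) or SM/J treated 4 (limma adjusted p = 0.0242). The F test of equal drug differences did not pass (limma adjusted p = 0.734). Vehicle levels did, from 8.81 ± 0.37 in WSB/EiJ to 9.52 ± 0.13 in NZW/LacJ (SD, n = 4; limma adjusted p of the F test = 0.000682).

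Slc39a14, the importer of manganese, zinc and free iron, was higher in 2 of 3 treated WSB/EiJ animals and in all treated NZW/LacJ animals. In WSB/EiJ the vehicle animals read 11.82, 12.10, 12.94 and 11.45 on probe set 1427035_at, and the treated animals 13.37, 13.31 and, on the array in doubt, 10.43. The first 2 treated animals lay above the vehicle range, and the array in doubt lay below it. In NZW/LacJ the values were 10.28, 10.50, 10.40 and 10.72 with vehicle and 11.14, 11.14, 11.27 and 11.09 with drug, with no overlap. In SM/J the vehicle animals read 10.96 to 11.22 and the treated animals 11.16 to 11.43, and in MA/MyJ 10.38 to 10.83 and 10.47 to 10.71, with overlap in both strains.

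Over all arrays no drug difference of Slc39a14 passed on 1427035_at. It was 0.29 ± 0.40 in WSB/EiJ and 0.68 ± 0.37 in NZW/LacJ (limma adjusted p = 0.663 and 0.204). When the array in doubt was dropped, the difference was 1.26 ± 0.22 in WSB/EiJ, or 2.40-fold (limma adjusted p = 9.84e-05), and 0.68 ± 0.18 in NZW/LacJ (limma adjusted p = 0.00620). The NZW/LacJ difference is the same in both fits because its animals are the same, and the error fell because the spread shared by all groups shrank. The average over strains was 0.29 ± 0.19 and did not pass (limma adjusted p = 0.301), and it was 0.53 ± 0.10 without the array (limma adjusted p = 0.000126). The F test of equal drug differences went from an adjusted p of 0.748 to 0.00498 in limma. Without the array, the MA/MyJ difference minus that of WSB/EiJ was -1.25 ± 0.29 (limma adjusted p = 0.00226) and the SM/J difference minus it -1.08 ± 0.29 (limma adjusted p = 0.0105). In that fit 24.2% and 17% of all genes passed for these 2 contrasts, and 33% for NZW/LacJ against WSB/EiJ.

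The other 3 probe sets of Slc39a14 agreed on WSB/EiJ and not on NZW/LacJ. Without the array in doubt the WSB/EiJ difference was 1.20 on 1425649_at, 1.67 on 1438490_at and 0.39 on 1457770_at, and each passed in limma (adjusted p = 8.81e-06, 6.07e-06 and 0.0337). On 1438490_at it also passed over all arrays, at 1.05 ± 0.30 (limma adjusted p = 0.0157). In NZW/LacJ the same 3 probe sets gave -0.12, 0.06 and -0.23 over all arrays (limma adjusted p = 0.788, 0.907 and 0.290). The rise in NZW/LacJ thus rests on a single probe set of 4. Vehicle levels differed between strains on 1427035_at, with WSB/EiJ highest at 12.08 ± 0.63 and NZW/LacJ lowest at 10.47 ± 0.19 (SD, n = 4; limma adjusted p of the F test = 0.00286). The NZW/LacJ minus SM/J vehicle difference, -0.59, passed only without the array in doubt (limma adjusted p = 0.295 and 0.0171). Over all arrays they did not pass on 1425649_at or 1438490_at (limma adjusted p = 0.117 and 0.652). Strain differences in the sequence under the probes were not tested.

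Slc39a8 encodes ZIP8, which recovers manganese from bile. On probe set 1416832_at its values ran from 9.79 to 10.54 over all animals, and vehicle and treated ranges overlapped in every strain. The average difference was -0.01 ± 0.06, with a 95% interval of -0.13 to 0.11 (limma adjusted p = 0.932), and no strain passed. When the array in doubt was dropped, the average was 0.00 ± 0.06 (limma adjusted p = 0.980). The second probe set, 1448482_at, differed: there the average was -0.34 ± 0.07 (limma adjusted p = 0.00118), and the 4 strain differences lay between -0.51 and -0.22. Without the array in doubt the average there was -0.36 (limma adjusted p = 0.000483). The vehicle levels also differed between strains on the second probe set and not on the first (limma adjusted p of the F test = 0.00774 and 0.133). The 2 probe sets therefore do not give 1 answer for this gene.

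Mt1 and Mt2 encode the liver's inducible metallothioneins, small proteins that hold zinc and copper. Mt1 read 13.72 to 14.74 on probe set 1422557_s_at, close to the highest value of any probe set in the table, 14.9, and ranked 19 from the top of 12890 genes. Mt2 read 12.77 to 14.73 and ranked 49. Vehicle levels of both differed between strains, with NZW/LacJ lowest. Mt2 stood at 13.57 ± 0.13 there, against 14.24 ± 0.15 in MA/MyJ, 14.39 ± 0.02 in SM/J and 14.53 ± 0.13 in WSB/EiJ (SD, n = 4). The NZW/LacJ minus WSB/EiJ difference was -0.96 ± 0.18 for Mt2 (limma adjusted p = 0.000152) and -0.43 ± 0.09 for Mt1 (limma adjusted p = 0.000740). The F tests over strains gave limma adjusted p-values of 0.000306 for Mt2 and 0.00186 for Mt1. SM/J, MA/MyJ and WSB/EiJ did not pass against each other in either gene over all arrays. In the fit that omits the array in doubt, the MA/MyJ minus WSB/EiJ difference of Mt1, -0.19, passed (limma adjusted p = 0.0312), as did its MA/MyJ minus NZW/LacJ difference of 0.25 (limma adjusted p = 0.0547 over all arrays and 0.00649 without it).

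Neither metallothionein passed for the drug in any strain over all arrays. The average was -0.06 ± 0.05 for Mt1 and -0.17 ± 0.09 for Mt2 (limma adjusted p = 0.427 and 0.188). In NZW/LacJ the vehicle animals read 13.55, 13.52, 13.75 and 13.45 for Mt2 and the treated animals 13.45, 13.44, 13.37 and 12.77. The first 3 treated animals lay just below the vehicle range and the fourth stood apart. The difference was -0.31 ± 0.18 for Mt2 and -0.18 ± 0.09 for Mt1, and without the array in doubt both passed narrowly (limma adjusted p = 0.0476 and 0.0471). The fourth treated animal set much of their size: over the other 30 arrays they were -0.15 and -0.10 (limma adjusted p = 0.631 and 0.537).

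In WSB/EiJ the 2 treated animals other than the array in doubt read 14.73 and 14.70 for Mt2 against vehicle values of 14.48, 14.50, 14.72 and 14.41. The array in doubt read 13.52, within the NZW/LacJ vehicle range. With that array the WSB/EiJ difference of Mt2 was -0.21 and without it 0.19, and neither passed (limma adjusted p = 0.476 and 0.335). The NZW/LacJ difference minus that of WSB/EiJ passed only without it, at -0.50 for Mt2 and -0.34 for Mt1 (limma adjusted p = 0.0375 and 0.0154). The second Mt1 probe set, 1451612_at, lies far from the top of the scale. On it the vehicle WSB/EiJ animals read 8.30, 8.43, 8.46 and 8.75 and the treated animals 9.87, 9.52 and, on the array in doubt, 7.18. The first 2 treated animals lay above the vehicle range. The difference was 0.37 ± 0.37 over all arrays, which did not pass, and 1.21 without the array in doubt (limma adjusted p = 0.000355), and on the brighter probe set it was 0.16 ± 0.08 without that array (limma adjusted p = 0.146). The 2 Mt1 probe sets thus gave differences of unequal size for the same animals.

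**Figure D2:**
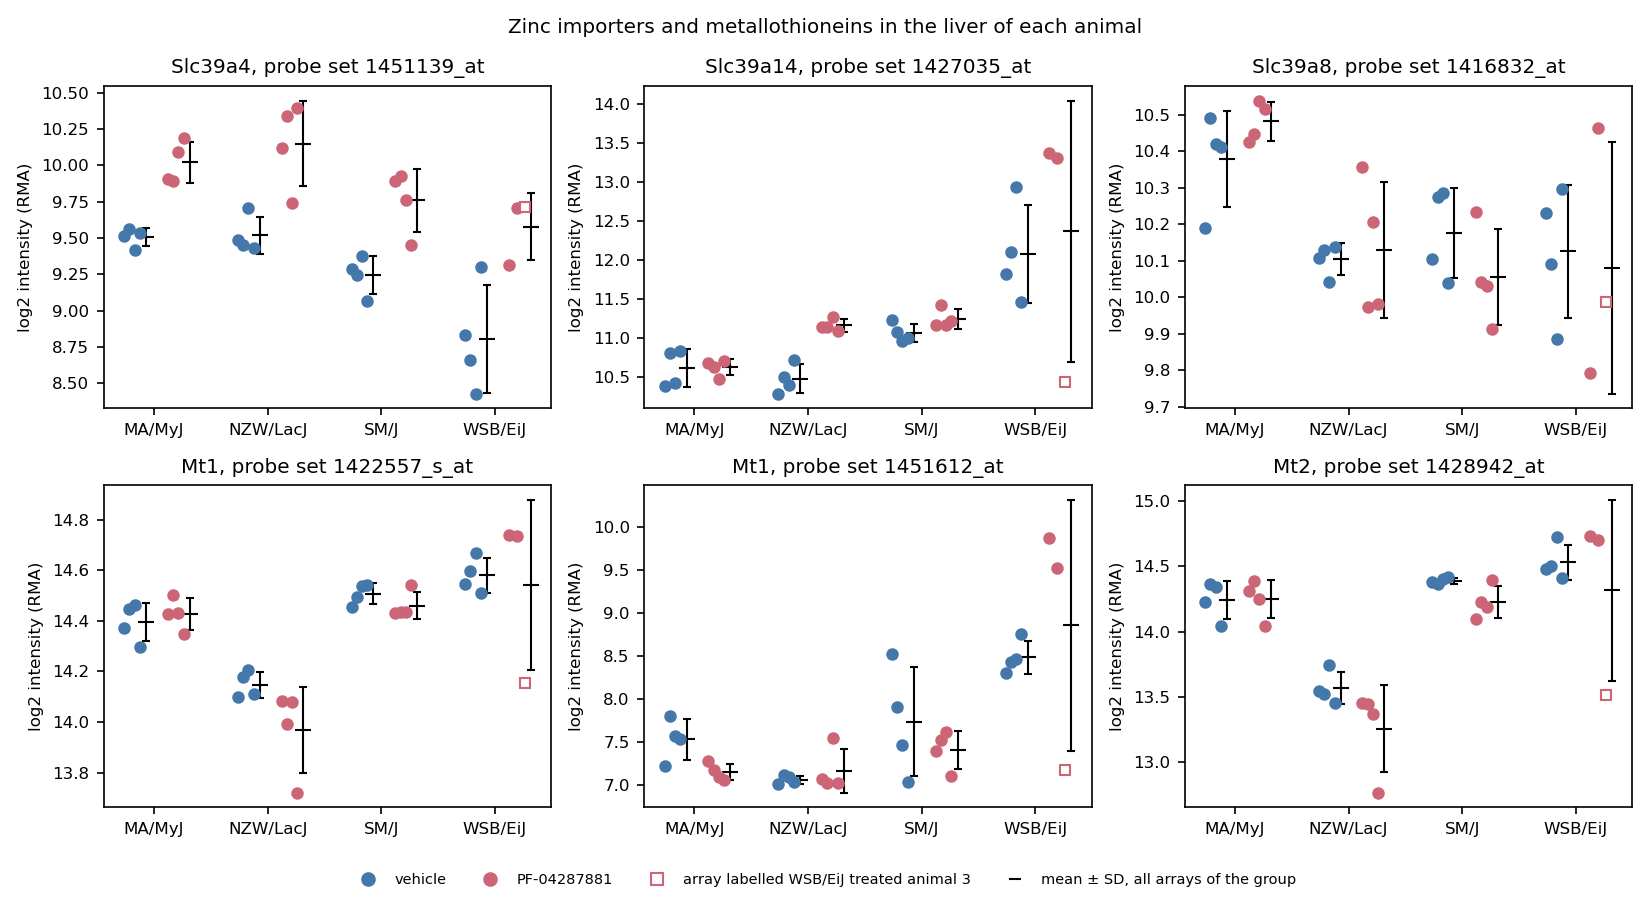
Log2 intensity of the zinc importers and metallothioneins in each animal (vertical axes, each with its own range) by strain (horizontal axes). Points are animals, blue for vehicle and red for PF-04287881, the open square is the array in doubt, and black bars give the mean and SD; for Slc39a14 that array reads 10.43 and the other treated WSB/EiJ animals 13.37 and 13.31.

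Slc40a1 encodes ferroportin, the iron exporter, which Kupffer cells and hepatocytes both carry. It fell in WSB/EiJ and passed in no other strain. The vehicle WSB/EiJ animals read 12.57, 12.61, 12.21 and 12.74 on probe set 1417061_at and the treated animals 11.42, 12.03 and, on the array in doubt, 12.60. The 2 treated animals not in doubt lay below the vehicle range, and the array in doubt lay inside it. In SM/J, NZW/LacJ and MA/MyJ the vehicle and treated ranges overlapped, at 11.82 to 12.20, 12.40 to 12.72 and 11.97 to 12.63 over both treatments. The WSB/EiJ difference was -0.52 ± 0.17 over all arrays (limma adjusted p = 0.0383) and -0.80 ± 0.16 without the array in doubt (limma adjusted p = 0.000327). With WSB/EiJ treated animal 1 left out instead it was -0.22 (limma adjusted p = 0.432), and the call was also lost without treated animal 2 or vehicle animal 1, 2 or 4 (limma adjusted p = 0.0777, 0.0794, 0.0786 and 0.0934).

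The second Slc40a1 probe set, 1448566_at, gave -0.72 ± 0.23 in WSB/EiJ (limma adjusted p = 0.0272) and -1.09 without the array in doubt. Its average over strains also passed, at -0.37 ± 0.11 (limma adjusted p = 0.0138), whereas that of the first probe set, -0.16 ± 0.08, did not (limma adjusted p = 0.171). Without the array in doubt the average passed on both, at -0.23 ± 0.07 on the first (limma adjusted p = 0.0103) and -0.46 on the second (limma adjusted p = 0.000358). The F test of equal drug differences gave an adjusted p of 0.259 in limma on the first probe set, and 0.00891 without the array in doubt. In that fit the WSB/EiJ difference was lower than that of MA/MyJ by 0.66 ± 0.20, of NZW/LacJ by 0.77 ± 0.20 and of SM/J by 0.86 ± 0.20 (limma adjusted p = 0.0200, 0.00465 and 0.00501).

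The Kupffer cell markers moved the other way in the same animals. Their mean level was 7.49 to 8.13 in the WSB/EiJ vehicle arrays and 8.73 and 8.88 in the 2 treated arrays not in doubt, with 8 of 13 markers higher over all arrays and 9 without the array in doubt, where 6.91% and 13.8% of all genes were higher. The recruited macrophage list, 9 of 10 measured, went from 6.81 to 6.94 with vehicle to 7.47 and 7.66 in those 2 animals, and 1 of its 8 tested genes passed over all arrays and 2 without the array in doubt. The part of either list in the fall of Slc40a1 was not tested. Vehicle levels of Slc40a1 were lowest in SM/J, at 12.07 ± 0.17 (SD, n = 4), and the F test over strains passed (limma adjusted p = 0.0294). The MA/MyJ minus SM/J difference of 0.39 passed only without the array in doubt (limma adjusted p = 0.0976 and 0.0320). The call of the F test was lost without SM/J vehicle 1 or 4 (limma adjusted p = 0.133 and 0.0610) and on the second probe set (limma adjusted p = 0.238).

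Tfrc encodes the transferrin receptor, whose messenger RNA is stabilised when the cell is short of iron. Its vehicle levels differed widely between strains. MA/MyJ vehicle animals read 7.39, 7.97, 8.34 and 8.69 on probe set 1452661_at and SM/J vehicle animals 10.99, 10.72, 10.77 and 11.06. NZW/LacJ animals read 9.14, 9.18, 9.01 and 8.94, and WSB/EiJ animals 9.44, 10.05, 9.37 and 8.52. Every SM/J vehicle animal lay above all others, and every MA/MyJ animal except the highest lay below all others. The MA/MyJ minus SM/J difference was -2.78 ± 0.27, which is 0.145 of the SM/J level (limma adjusted p = 3.20e-08), and the F test passed (limma adjusted p = 1.01e-07). The range was narrower on the next probe sets, from 7.36 in MA/MyJ to 8.56 in SM/J on 1422966_a_at and from 6.54 to 7.37 on the 3′ control probe set, with the strains in the same order. The F test passed on both (limma adjusted p = 1.50e-05 and 0.000124). NZW/LacJ and WSB/EiJ, neighbours in the order, had a difference of -0.28 ± 0.27 that did not pass (limma adjusted p = 0.438). The MA/MyJ minus NZW/LacJ difference was -0.97 ± 0.27 (limma adjusted p = 0.00972), a call lost without MA/MyJ vehicle 1, when it was -0.73 (limma adjusted p = 0.0547).

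Of 10 erythroid markers on the list 5 were measured, and 1 of these, Hba-a1, read 4.58 to 5.08, under the overall median on every array. The mean of the 5 was 6.54 to 6.87 in WSB/EiJ vehicle animals, 7.12 to 7.49 in MA/MyJ, 7.22 to 7.68 in SM/J and 7.59 to 7.72 in NZW/LacJ. The part of erythroid cells in the Tfrc levels was not tested. With drug, Tfrc did not pass in any strain over all arrays, at 0.60 ± 0.29 in WSB/EiJ, -0.45 ± 0.27 in SM/J, 0.42 ± 0.27 in NZW/LacJ and -0.13 ± 0.27 in MA/MyJ. In WSB/EiJ the treated animals read 10.40, 10.23 and, on the array in doubt, 9.22. The first 2 lay above the vehicle range, and without the array in doubt the difference was 0.97 ± 0.30, or 1.96-fold (limma adjusted p = 0.0137). It also passed when WSB/EiJ vehicle 2 was left out of all arrays, at 0.84 (limma adjusted p = 0.0487). In that strain 1422966_a_at gave 0.48 and the 3′ control probe set 0.41 without the array in doubt, and both passed (limma adjusted p = 0.0424 and 0.0258). The other 3 probe sets were under the brightness filter and were not tested: 1422967_a_at gave -0.07 and the 5′ and middle control probe sets -0.06 and -0.04. The F test of equal drug differences passed only without that array (limma adjusted p = 0.138 and 0.0209), when the SM/J difference minus that of WSB/EiJ was -1.42 ± 0.38 and the MA/MyJ difference minus it -1.10 ± 0.38 (limma adjusted p = 0.0119 and 0.0381).

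Slc11a2 encodes DMT1, which carries ferrous iron out of endosomes. In MA/MyJ, the strain with the smallest difference in Slc30a10, every treated animal read lower than every vehicle animal. The MA/MyJ vehicle animals read 9.07, 9.23, 9.33 and 9.0 on probe set 1426441_at and treated animals 8.73, 8.16, 8.60 and 8.32, with no overlap. The difference of -0.71 ± 0.22 missed the threshold over all arrays (limma adjusted p = 0.0626) and passed without the array in doubt (limma adjusted p = 0.0467). Of the other 3 probe sets, 1452078_a_at passed in MA/MyJ at -0.85 ± 0.13 (limma adjusted p = 0.000328), while 1441709_at gave -0.80 ± 0.25 and 1417584_at -0.20 ± 0.11 (limma adjusted p = 0.0635 and 0.329). In the other strains the first probe set gave 0.04 ± 0.23 in WSB/EiJ, 0.07 ± 0.22 in SM/J and -0.27 ± 0.22 in NZW/LacJ. On 1441709_at the values there were far from these, at -0.64 ± 0.27 in WSB/EiJ, 0.47 ± 0.25 in SM/J and 0.29 ± 0.25 in NZW/LacJ, and none passed over all arrays (limma adjusted p = 0.0978, 0.374 and 0.448). Once the array in doubt was omitted, the WSB/EiJ value was -1.04 and passed (limma adjusted p = 0.00300). The drug differences varied between strains on 1452078_a_at and 1441709_at (limma adjusted p of the F test = 0.00783 and 0.0169) and did not pass on 1426441_at (limma adjusted p = 0.184). The average over strains was -0.22 on 1426441_at (limma adjusted p = 0.163) and -0.30 on 1452078_a_at (limma adjusted p = 0.00162).

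**Figure D3:**
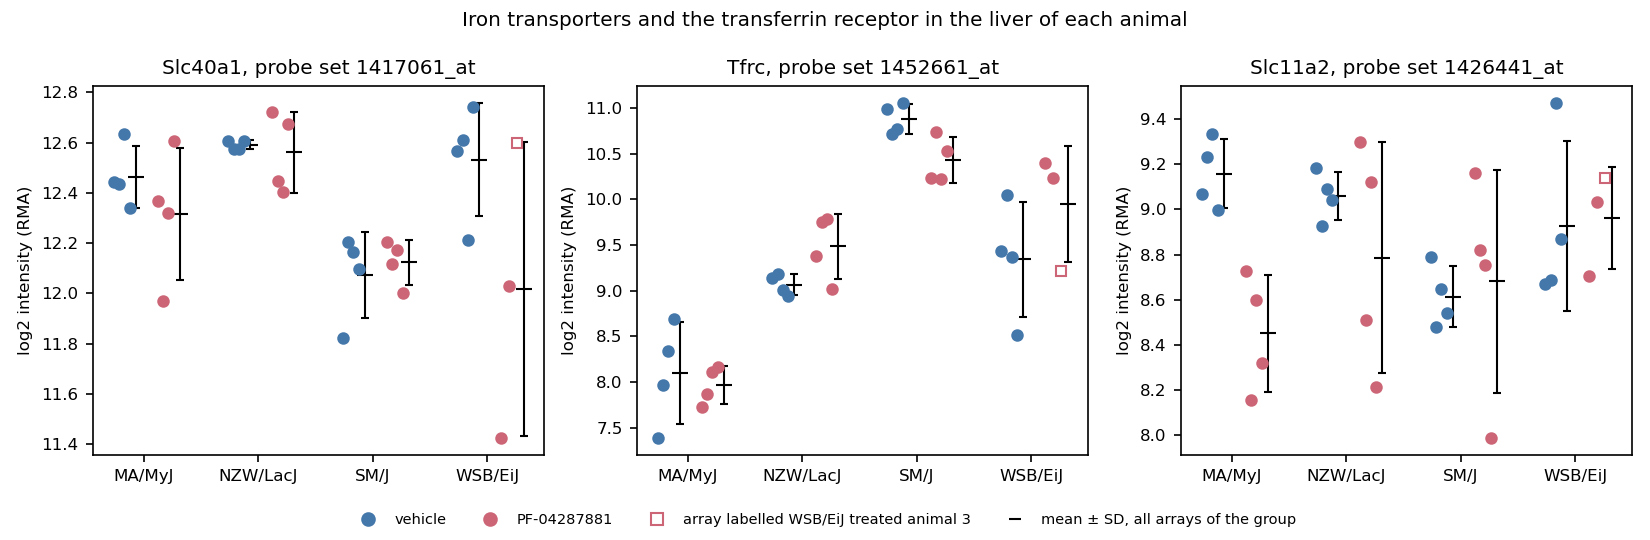
Log2 intensity of Slc40a1, Tfrc and Slc11a2 in each animal (vertical axes, each with its own range) by strain (horizontal axes). Points are animals, blue for vehicle and red for PF-04287881, the open square is the array in doubt, and black bars give the mean and SD; Tfrc vehicle animals read 10.72 to 11.06 in SM/J and 7.39 to 8.69 in MA/MyJ.

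The counts of passing genes within a strain, Slc30a10 aside, depended on the array in doubt. Over all arrays 1 of 8 passed in MA/MyJ, where 4.14% of all genes passed, and 1 of 8 in NZW/LacJ, where 21.5% passed. In SM/J none of the 8 passed in limma, against 2.59% of all genes, and 1 had an unadjusted p under 0.05. In WSB/EiJ 2 of 8 passed, against 19.3%. In the fit over all arrays the passing gene was Slc39a4 in MA/MyJ, in NZW/LacJ and, with Slc40a1, in WSB/EiJ. Fits to the arrays of 1 strain alone called 0 in WSB/EiJ, 1 in SM/J, 2 in NZW/LacJ and 2 in MA/MyJ. The fit of WSB/EiJ alone kept the array in doubt among its 3 treated arrays. With that array left out the counts were 4 of 8 in WSB/EiJ (32.4% of all genes), 1 in SM/J (4.65%), 4 in NZW/LacJ (26.7%) and 2 in MA/MyJ (7.3%). In WSB/EiJ these were Slc39a4, Slc39a14 and Tfrc, which were higher, and Slc40a1, which was lower. In vehicle animals 7 of the 9 genes differed between strains, where 56.5% of all genes did, with Slc39a8 and Slc11a2 not passing on their brightest probe sets. Both passed on others: Slc39a8 on 1448482_at (limma adjusted p = 0.00774) and Slc11a2 on 1441709_at and 1452078_a_at (limma adjusted p = 0.000167 and 0.0216). Without the array in doubt it was again 7, against 63% of all genes.

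**Figure D4:**
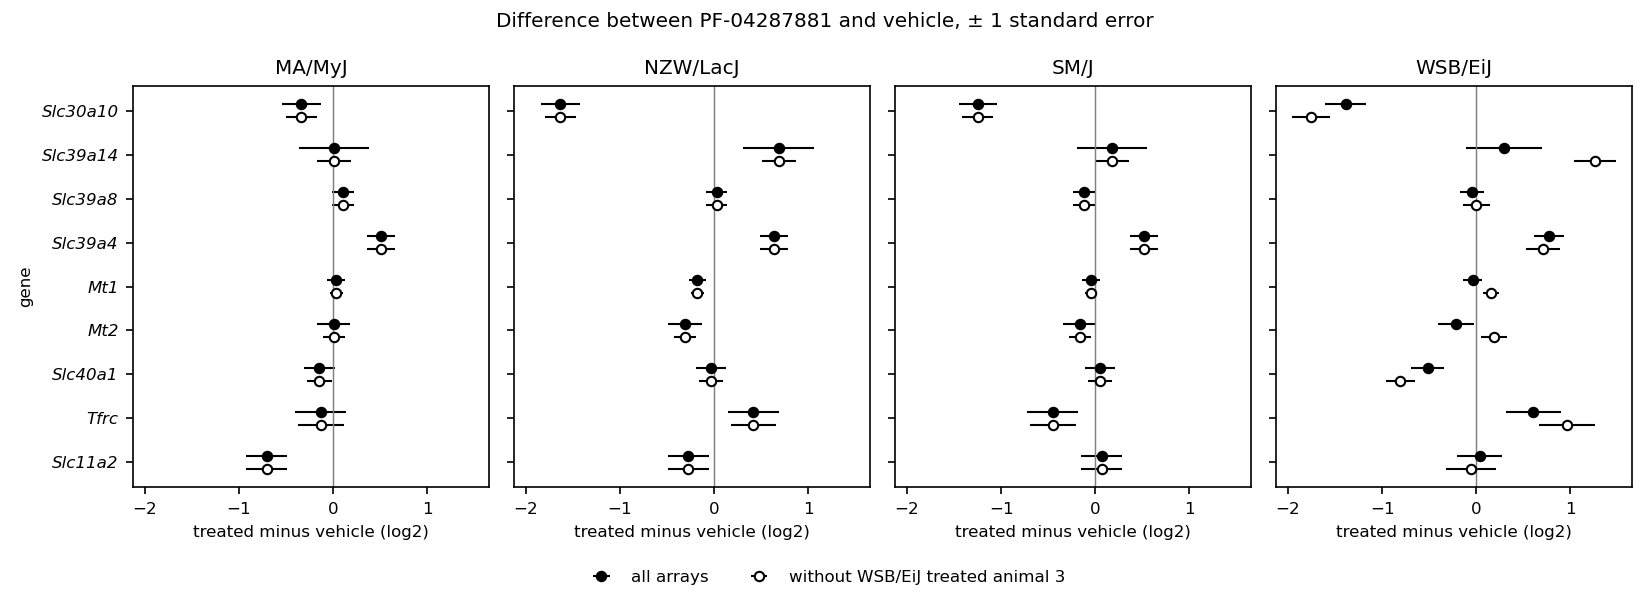
Treated minus vehicle difference of each gene in log2 units (horizontal axes) with 1 standard error, by gene (vertical axis) and strain (panels). Filled points use all 31 arrays and open points leave out the array titled WSB/EiJ treated animal 3; the Slc39a14 difference in WSB/EiJ goes from 0.29 to 1.26.

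Other metal-handling genes were counted from lists for zinc, iron and manganese. Of 18 tested other zinc transporters 3 rose and 2 fell for the average of the strains, where 13.3% of all genes rose and 8.92% fell, with a median difference of 0.02 beside 0.00 for all genes. Those that rose were Slc39a11, by 0.37 ± 0.09 (limma adjusted p = 0.00348), Slc30a9, by 0.20 ± 0.04, and Slc39a9, by 0.13 ± 0.04. Slc30a5, which fills the secretory pathway with zinc, fell by 0.23 ± 0.08 (limma adjusted p = 0.0314), and Slc30a3 fell by 0.13 ± 0.04. The Slc30a5 difference was -0.69 in WSB/EiJ and -1.05 there without the array in doubt. Without that array 4 of the 18 fell, where 14.2% of all genes did, with Slc39a2 (-0.27) and Slc30a6 (-0.09) added. Of 3 tested genes tied to zinc sensing, Gclc, a subunit of the first enzyme of glutathione synthesis, fell by 0.28 ± 0.07 (limma adjusted p = 0.00320), and the factor Mtf1 did not pass.

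Of 23 tested genes of iron transport and storage, 7 rose and none fell in limma, also at an unadjusted p under 0.05, where 13.3% of all genes rose and 8.92% fell. The list's median difference was 0.08. The largest were Lcn2, a siderophore-binding protein, at 0.91 ± 0.23 (limma adjusted p = 0.00462), Slc11a1, the phagosomal metal transporter of macrophages, at 0.70 ± 0.11, Cd163, the macrophage receptor for haemoglobin, at 0.69 ± 0.19, and Flvcr2 at 0.47 ± 0.09. Mcoln1 (0.34), Cp (0.18) and Hpx (0.14) rose less. Slc11a1 and Cd163 are expressed in macrophages, and Cd163 is also on the Kupffer cell list used here. The mean level of the recruited macrophage list rose most in MA/MyJ, from 6.92 with vehicle to 8.43 with drug. It went from 6.98 to 8.08 in NZW/LacJ, from 6.91 to 7.31 in SM/J and from 6.86 to 7.36 in WSB/EiJ, over all arrays. The part of this list in the rises of Slc11a1 and Cd163 was not tested. With the array in doubt left out 9 rose and 1 fell, against 18.4% and 14.2% of all genes. Steap4, a metalloreductase, and Ncoa4, the receptor for ferritin breakdown, were the added rises, at 0.33 and 0.30, and Slc48a1, a haem transporter, was the fall, at -0.10.

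Of 22 tested genes of hepcidin control and iron sensing, 1 rose and 2 fell, where 13.3% of all genes rose and 8.92% fell. Tmprss6, a protease that lowers hepcidin, rose by 0.14 ± 0.04, and the receptor genes Acvr2a and Bmpr1a fell by 0.17 ± 0.05 and 0.11 ± 0.03. When the array in doubt was dropped, 2 rose and 3 fell, with Smad1 (0.25) and Neo1 (-0.16) added. Hepcidin itself, Hamp, did not pass for the average, at 0.08 ± 0.04 (limma adjusted p = 0.185). Of 6 genes for manganese in the Golgi and manganese enzymes, Glul, the manganese-dependent glutamine synthetase, rose by 0.22 ± 0.06 (limma adjusted p = 0.00552). For the F test of equal drug differences 0 of these 6 passed in limma over all arrays, with 3 at an unadjusted p under 0.05, and 1, Tmem165, passed without the array in doubt. In the other lists 5 of 18, 1 of 3, 3 of 23 and 3 of 22 genes passed this F test over all arrays, in the order given above, where 19.4% of all genes passed. These were Slc30a6, Slc30a9, Slc39a5, Slc39a6 and Slc39a9 among zinc transporters and Ndrg1 in zinc sensing. In the iron lists they were Slc25a28, Flvcr1 and Abcb10, and Smad7, Tmprss6 and Fbxl5. Without the array in doubt the counts were 12, 1, 7 and 4, against 32.4% of all genes, and the 4 were Bmpr1a, Neo1, Smad6 and Fbxl5.

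**Figure D5:**
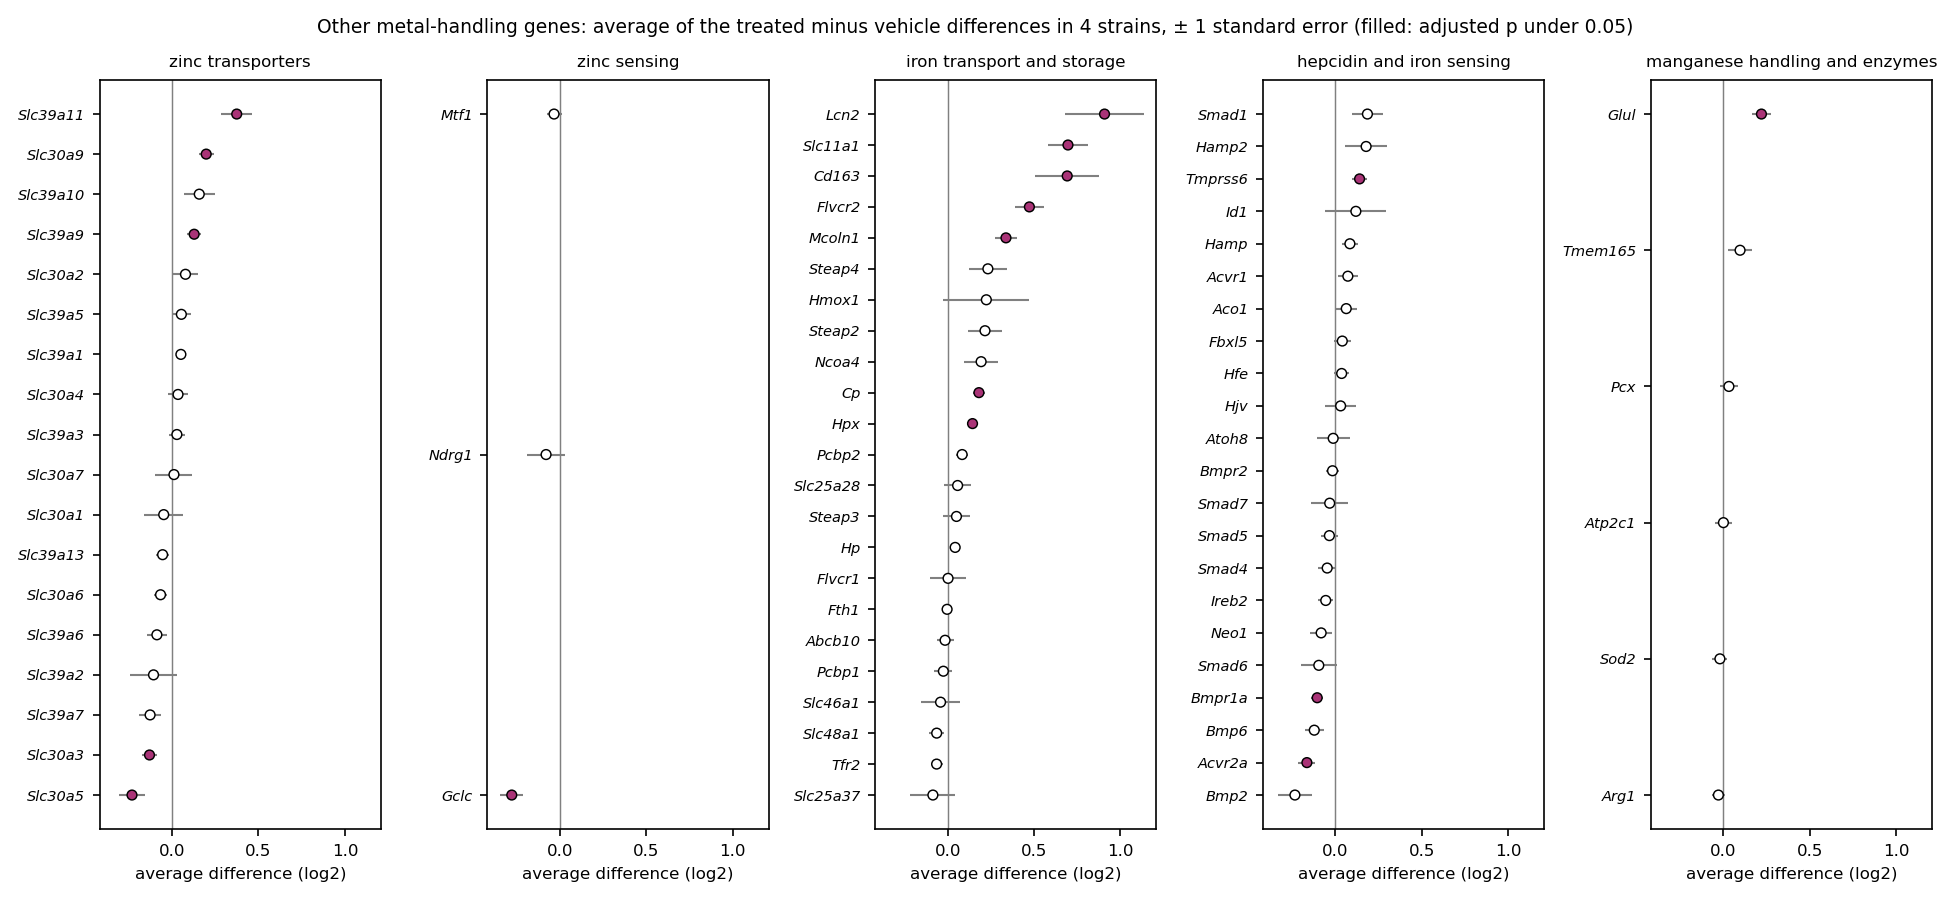
Average over the 4 strains of the treated minus vehicle differences in log2 units (horizontal axes) with 1 standard error, for the tested genes of 5 lists (panels). Filled points passed at an adjusted p under 0.05 and open points did not; 7 of the 23 genes of iron transport and storage passed, all of them higher.

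The genes most like Slc30a10 over the 31 arrays, among 12220 compared, were Clock (Pearson r = 0.923), Clpx (0.904), Tars (0.885), Psmc1 (0.882) and Mmgt1 (0.876), and without the array in doubt r was 0.922, 0.903, 0.887, 0.881 and 0.877. These values describe arrays that share strain and treatment groups, and they carry no test. Clock, a transcription factor of the circadian clock, differed between treated and vehicle animals by -0.56 in WSB/EiJ, -0.55 in SM/J, -0.72 in NZW/LacJ and 0.03 in MA/MyJ. Clpx, part of a mitochondrial protease, gave -0.46, -0.70, -1.70 and -0.03 in the same order. Tars gave -0.79, -0.34, -0.76 and -0.27, Psmc1 -0.27, -0.49, -0.58 and -0.18, and Mmgt1 -0.12, -0.24, -0.26 and -0.05. The genes were picked by likeness over these same arrays, so a shared pattern over the strains is partly built in.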

How the data were processed

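Livers of 31 mice were measured on 1-colour Affymetrix arrays. The deposited values are log2 intensities per probe set, made by the authors with Affymetrix Power Tools and RMA, per the labels; per the labels' protocols, column-isolated RNA was amplified in 1 round and labelled with biotin. Versions, scan dates and detection calls are not given in the sources used here. RMA sets all arrays to 1 distribution, so a shift of all genes cannot be seen.

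Of 44721 probe sets, 34728 carried 1 symbol, brought up to date through a RefSeq annotation (GRCm38.p6). A gene took its probe set with the highest mean, and genes above the overall median, 6.49, in at least 3 arrays were tested. limma 3.58.1 in R 4.3.3 fitted 1 mean per group over all arrays, with eBayes (3.17 prior and 23 residual degrees of freedom), two-sided, adjusted over 12890 genes. The package data.table, version 1.17.8, read the files. Other probe sets of a gene were fitted over 21564 probe sets, an alternative chosen after seeing the data.

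The genes and lists were chosen with earlier results of these data known. Named genes are the 9 genes, the 4 largest passing changes of each list, every gene behind a count of 5 or fewer in the metal lists, and the 5 genes most like Slc30a10. On simulated data for the average over strains, 98 of 100 genes changed by 1 log2 unit and 87 of 100 changed by 0.5 were recovered. For WSB/EiJ these were 85 and 48, for NZW/LacJ 88 and 50, and for the F test of drug differences 80 and 25. False calls were 3.65%, 6.34%, 5.48% and 4.55% of all calls in the same order. The simulation gave each gene the same spread in every group and held no array that went against its label. These rates therefore do not carry over to the treated WSB/EiJ group as measured. P-values rest on the spread between animals within groups of strain and treatment, pooled over all groups, and the number of arrays limits precision.

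The labels state no pairing by animal number, and none was fitted in the main model. Of 15 pairs with the same number, 4 correlated above 0.1, with a range of -0.522 to 0.413. This check had no reference to compare with, so it cannot show that pairing was absent. Alternatives were the array in doubt left out, each array left out, an animal-number block, no brightness filter, median centring, robust eBayes, array weights, the mean of probe sets, and strains fitted alone or left out.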

Additional observations from a re-analysis of the deposited data

Results flagged for a closer look

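In 63 groups of 4 animals, 1 animal stood apart from the rest by Dixon's test in 2, where chance gives about 1 in 20. Mt1 read 14.54 in SM/J treated animal 4, with the other treated SM/J animals at 14.43. Mt2 read 12.77 in NZW/LacJ treated animal 4, with the next lowest animal at 13.37.

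The drug difference of Slc30a10 varied between strains (limma F test, adjusted p = 0.00841). The MA/MyJ difference stood apart from that of NZW/LacJ (gap 1.30, limma adjusted p = 0.0135) and of WSB/EiJ (gap 1.05, limma adjusted p = 0.0232).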

How the results depend on the processing

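Leaving out the array in doubt took the passing genes from 2 to 4 in WSB/EiJ, 0 to 1 in SM/J, 1 to 4 in NZW/LacJ, 1 to 2 in MA/MyJ, 1 to 3 for the average and 1 to 4 for the F test of drug differences. Array weights gave 4, 2, 4, 2, 3 and 6 in that order, and the mean of probe sets 2 in MA/MyJ, 4 for the average and 2 for the F test. With no brightness filter MA/MyJ had 0. Strains fitted alone gave 0 in WSB/EiJ, where the array in doubt was kept, 1 in SM/J, 2 in NZW/LacJ and 2 in MA/MyJ. The average without WSB/EiJ gave 2. The animal-number block left 1 in WSB/EiJ, and the Slc39a4 call in MA/MyJ was lost (limma adjusted p = 0.0652). Leaving out 1 array gave 1 to 4 in WSB/EiJ, 0 to 1 in SM/J, 1 to 4 in NZW/LacJ, 0 to 2 in MA/MyJ, 1 to 3 for the average, 1 to 4 for the F test and 6 to 7 for vehicle levels. No called difference reversed. Over single genes and contrasts, 4142 alternative values kept their side of the threshold, 138 passed newly, 72 were lost and 98 moved with no call. Over all genes, called counts went from 534 to 941 (without the array), 2607 (array weights) and 1063 (alone) in MA/MyJ, from 2766 to 4418 (array weights) in NZW/LacJ, from 334 to 600 and 2765 in SM/J, and from 2488 to 4180, 4209 and 4 in WSB/EiJ. For the average they went from 2859 to 5280 (array weights), 4444 without WSB/EiJ and 1768 without NZW/LacJ, and for the F test from 2498 to 4180 and 5859. The cause was not tested. Mt1 and Mt2 read close to the top of the scale, which limits what a rise can show.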
